A study of Mus musculus with 12 samples.

Results

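The transcripts described here encode the RIG-I-like receptors, their adaptor MAVS and linked RNA sensors, chosen by name: Ddx58, Ifih1, Dhx58, Mavs, Rnf135, Zc3hav1 and Ddx60. All 7 were counted in every library, among 18719 genes listed in either count table (17544 for unstimulated cells and 17874 after LPS). They were followed in J774A.1, a mouse macrophage cell line, in 4 groups of 3 libraries. WT lines had received a Cas9 vector that carried no guide, and ACAT1 KO lines the same vector with a guide to the fourth exon of Acat1, the gene of mitochondrial acetyl-CoA acetyltransferase. Each genotype was sequenced unstimulated and after 2 hours with LPS at 100 ng/ml, a bacterial ligand of Toll-like receptor 4. Every line, WT included, had passed through transfection, GFP sorting and outgrowth from few cells, so the 3 lines of a genotype are derivatives of a single cell line and p-values measure the spread between such derivatives.

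RIG-I (gene Ddx58) and MDA5 (Ifih1) are cytosolic helicases that recognise viral RNA. RIG-I binds short double-stranded RNA with a triphosphate or diphosphate end, and MDA5 forms filaments on long double-stranded RNA. Both then engage MAVS, an adaptor on the mitochondrial outer membrane, which activates TBK1, IRF3 and NF-κB and leads to type I interferon production, and many genes of this family are themselves induced by interferon in macrophages. LGP2 (Dhx58) lacks the signalling domain of the other receptors and modulates them. Riplet (Rnf135) is a ubiquitin ligase for RIG-I, ZAP (Zc3hav1) binds CpG-rich viral RNA and directs its decay, and DDX60 is a helicase linked to RIG-I signalling.

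The genes lie on 5 chromosomes of GRCm38. Dhx58 (ENSMUSG00000017830, chr11:100694884-100704271, minus strand) and Rnf135 (ENSMUSG00000020707, chr11:80183851-80199757, plus strand) share chromosome 11, and Ifih1 (ENSMUSG00000026896, chr2:62595798-62646255, minus strand) and Mavs (ENSMUSG00000037523, chr2:131234063-131248025, plus strand) share chromosome 2. Ddx58 (ENSMUSG00000040296) is at chr4:40203773-40239828 on the minus strand, Zc3hav1 (ENSMUSG00000029826) at chr6:38305286-38354603 on the minus strand, and Ddx60 (ENSMUSG00000037921) at chr8:61928087-62038244 on the plus strand. An antisense gene, Dhx58os, overlaps 141 exon bases of Dhx58, 4.31% of its exon length. The counting strand is not given in the sources used here, so reads from that stretch cannot be assigned to either gene.

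Promoter sequence from RefSeq (GRCm38.p6) was searched from 250 bases before to 50 bases after the start, which was possible for 6 of the 7 genes. The letters searched on both strands were GAAA, any 2 bases and GAAA again, the core of the interferon-stimulated response element (ISRE) bound by interferon-activated factors, TTCNNNGAA, the site for STAT dimers, and GGGA, any base and TTTCC, an NF-κB site. The ISRE core occurred in 3.44% of 32851 promoters, the STAT site in 8.3% and the NF-κB site in 0.411%. Ddx58, Ifih1 and Ddx60 held the ISRE core, Mavs, Rnf135 and Zc3hav1 did not, and none of the 6 held either of the other motifs. The 4 genes whose LPS response differed most between the genotypes below are these 3 and Dhx58, which could not be searched. The matching stretches of these 3 are therefore shown. They are written 5′ to 3′ on the strand of the gene with the match in capitals, from chr4:40239804-40239833 (minus strand) for Ddx58, chr2:62646206-62646235 (minus strand) for Ifih1 and chr8:61927987-61928086 (plus strand) for Ddx60.
Ddx58: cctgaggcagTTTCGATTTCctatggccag
Ifih1: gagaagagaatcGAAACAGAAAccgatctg
Ddx60: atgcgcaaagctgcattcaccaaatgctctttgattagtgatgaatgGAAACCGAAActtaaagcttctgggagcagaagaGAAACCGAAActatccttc
In Ddx58 the match begins at base 3 after the start and reads on the opposite strand. In Ifih1 it begins at base 33. Ddx60 holds the same 10 letters at both positions, beginning 53 and 19 bases before the start. A match describes the letters alone, and binding was not measured here.

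Depth and identity of the libraries were as follows. Totals ranged from 56948593 to 167280149 counts per library, and the lowest count of any member was 657, for Ddx60 in an unstimulated ACAT1 KO library. Acat1 itself was 98.8 ± 15.6 CPM (SD, n = 3; counts scaled to the size of the library) in WT and 26.8 ± 1.82 CPM in ACAT1 KO lines unstimulated, and 81.9 ± 15.5 against 19.1 ± 0.732 CPM after LPS, with no overlap. All 8 macrophage markers were counted, at a summed 7003 to 11860 CPM, most of it Lyz2, and no epithelial marker of 4 was in either table. The summed fibroblast list was 1.24 to 1.88 CPM in unstimulated libraries, 4.95 to 5.98 CPM in WT and 10.3 to 12.2 CPM in ACAT1 KO libraries after LPS, nearly all of it Pdgfra, while Col1a1, Col1a2 and Dcn were too low to test. T cell and B cell lists each had 1 gene in the tables, at most 9.93 and 0.825 CPM in sum. A set of 3 unstimulated libraries (WT lines 1 and 2, ACAT1 KO line 2) carried more counts on noncoding genes that lie in exons of the opposite strand, 0.0165% to 0.0242% against 0.0035% to 0.00445% in the other 9.

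The first question was how the sensors differed between genotypes in resting cells. Ddx60, Ddx58 and Dhx58 were lower in ACAT1 KO than in WT lines, by 1.83-fold, 1.78-fold and 1.60-fold. Ifih1 and Zc3hav1 had lower values that did not pass the adjusted test, while Mavs and Rnf135 overlapped between the genotypes. Thus 3 of the 7 passed an adjusted p under 0.05, all lower, where 1.17% of the 16440 genes tested were called lower and 1.91% in either direction. By the unadjusted p, the threshold used in the study, 5 of 7 were lower, against 9.93% of all genes.

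Among the receptors, Ddx58 in WT lines 1, 2 and 3 was 51.7, 61.9 and 56.5 CPM, and in ACAT1 KO lines 34.8, 34.2 and 26.2 CPM. The highest knockout line was below the lowest WT line, and the difference on the log2 scale was -0.83 (standard error 0.124, adjusted p = 0.0390, edgeR's quasi-likelihood test, two-sided, adjusted over all genes by Benjamini-Hochberg). Dhx58 was the most even of the receptors among WT lines, at 43.4, 41.5 and 41.7 CPM, against 25.4, 29.4 and 23.9 CPM in ACAT1 KO lines. These groups were apart as well, at -0.68 on the log2 scale (standard error 0.0882, adjusted p = 0.0311 by edgeR). Ifih1 was 36.5, 42.1 and 37.7 CPM in WT and 27.2, 30.1 and 23.3 CPM in ACAT1 KO lines. No library of Ifih1 overlapped between genotypes, but its log2 difference of -0.52 (standard error 0.108) had an adjusted p of 0.0686 by edgeR. RNA from a whole culture cannot tell fewer expressing cells from less RNA per cell.

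The helicase Ddx60, the lowest of the 7 per kilobase of exon, had the largest difference, with 11.4, 12.8 and 13.4 CPM in WT and 6.91, 7.15 and 6.33 CPM in ACAT1 KO lines. All 3 knockout lines lay close together below the WT lines, at -0.87 on the log2 scale (standard error 0.107, adjusted p = 0.0274 by edgeR). Zc3hav1 was 264, 270.1 and 250.4 CPM in WT and 215, 221 and 228 CPM in ACAT1 KO lines. The gap for this RNA-binding protein was narrow but complete, at -0.23 on the log2 scale (standard error 0.0606) with an adjusted p of 0.107 by edgeR. With Ddx58, Ifih1, Dhx58 and Ddx60 it made 5 genes whose knockout libraries all lay below WT, a pattern shown by 12.7% of the genes tested.

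The adaptor did not share this direction. Mavs was 45.7, 48.7 and 43.1 CPM in WT and 45.3, 50.5 and 53.1 CPM in ACAT1 KO lines, overlapping ranges that differed by 0.12 on the log2 scale (standard error 0.0808, adjusted p = 0.455 by edgeR). Mavs lies in a stretch of chromosome 2, beyond 90 Mb, where 709 tested genes had a median difference of 0.29 on that scale, with 67 called higher and 2 lower, against a median of 0.0035 over all genes. The 36 genes within 1 Mb of Mavs had a median of 0.32, so Mavs was below its neighbours. Rnf135 was 11.3, 10.4 and 13.2 CPM in WT and 11.2, 10.3 and 11.9 CPM in ACAT1 KO lines. The ranges of this RIG-I ubiquitin ligase nearly coincided, at -0.055 on the log2 scale (standard error 0.117, adjusted p = 0.851 by edgeR).

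These resting calls depended on single libraries. Without WT line 1, WT line 2, ACAT1 KO line 1 or ACAT1 KO line 3, none of the 7 passed the adjusted threshold in edgeR (5 still passed unadjusted each time), without ACAT1 KO line 2 Dhx58 alone passed, and without WT line 3 the same 3 did. The values themselves kept their direction, from -0.91 to -0.71 for Ddx58 (adjusted p = 0.0468 to 0.137), -0.77 to -0.61 for Dhx58 (adjusted p = 0.0328 to 0.121) and -0.95 to -0.82 for Ddx60 (adjusted p = 0.0323 to 0.124). Within the 3 libraries with more opposite-strand counts (2 WT, 1 ACAT1 KO), the difference of mean log2 CPM was -0.72 for Ddx58, -0.53 for Dhx58, -0.38 for Ifih1 and -0.76 for Ddx60. Within the other 3 unstimulated libraries (1 WT, 2 ACAT1 KO) it was -0.90, -0.76, -0.58 and -1.01 in the same order, so each was lower in ACAT1 KO cells inside both sets.

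**Figure D1:**
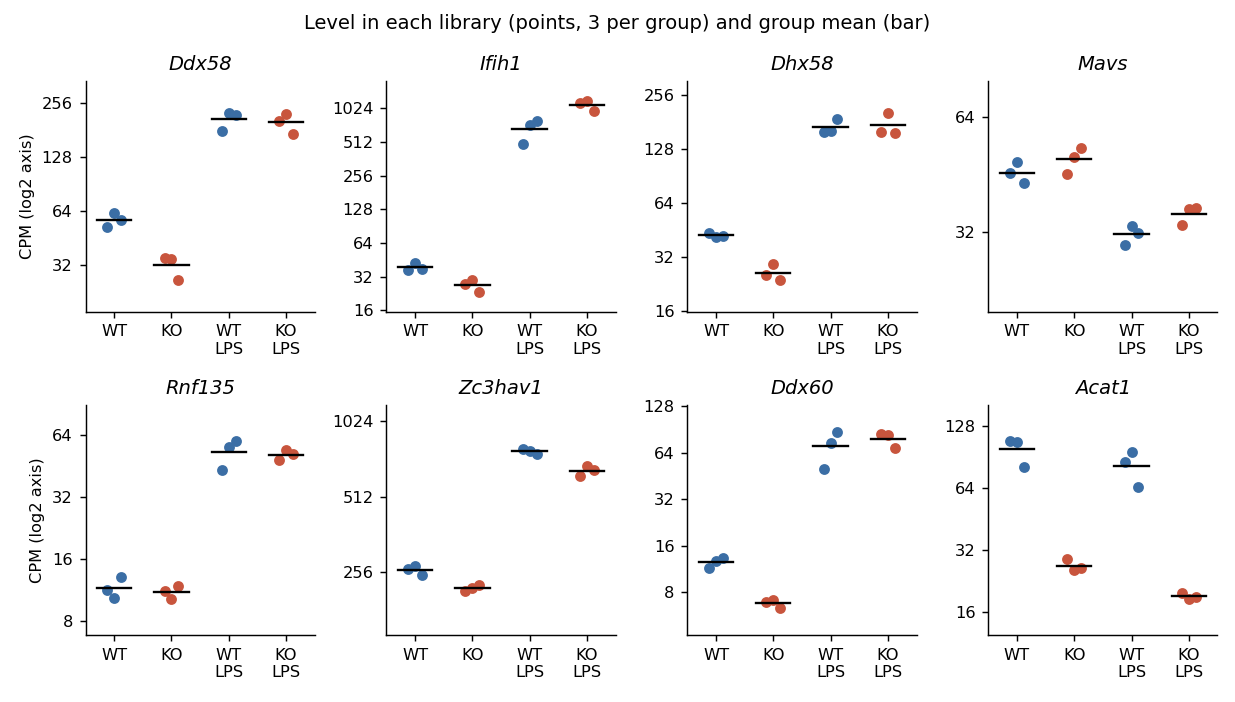
Level of each of the 7 genes and of Acat1 in every library, in CPM on a log2 axis, with 3 points per group (WT blue, ACAT1 KO red) and a bar at the mean. Unstimulated, the knockout points of Ddx58, Ifih1, Dhx58, Zc3hav1 and Ddx60 all lie under the WT points, and after LPS, of the 7 genes, Ifih1 and Mavs lie wholly above and Zc3hav1 wholly below. The knockout points of Acat1 lie below WT in both states.

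LPS for 2 hours raised 6 of the 7 and lowered Mavs in both genotypes. All 7 thus passed the adjusted test in WT lines, where 57.4% of the 16535 genes tested passed, 29.3% as increases and 28.0% as decreases. All 7 also passed in ACAT1 KO lines, against 60.7% of genes, 29.5% higher and 31.2% lower. Ifih1 had the largest rise. From the resting values above, Ifih1 reached 487, 725 and 781 CPM in WT and 1131, 1195 and 969.9 CPM in ACAT1 KO lines. The MDA5 transcript rose 17.1-fold in WT (log2 4.10, standard error 0.178) and 40.9-fold in ACAT1 KO lines (log2 5.35, standard error 0.189).

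The other receptors rose less. Ddx58 reached 178, 225 and 219 CPM in WT and 203, 222 and 172 CPM in ACAT1 KO lines, a rise of 3.66-fold and 6.27-fold. Dhx58 reached 159, 161.5 and 187 CPM in WT and 159, 203 and 157.5 CPM in ACAT1 KO lines, a rise of 4.01-fold and 6.60-fold. For both genes the stimulated levels overlapped between genotypes, so the larger fold in ACAT1 KO lines went with their lower start.

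Ddx60 reached 49.9, 74.1 and 87.2 CPM in WT and 84.2, 83.9 and 68.9 CPM in ACAT1 KO lines, a rise of 5.62-fold and 11.6-fold. WT line 1 was the lowest WT library for Ddx60 as it was for Ifih1, Ddx58 and Rnf135. Rnf135 reached 43.2, 56.0 and 59.5 CPM in WT and 48.4, 53.8 and 51.5 CPM in ACAT1 KO lines, rising 4.54-fold and 4.59-fold. Zc3hav1, the highest at rest per kilobase of exon, reached 796.5, 782 and 757 CPM in WT and 618.5, 679 and 658 CPM in ACAT1 KO lines, rising 2.98-fold and 2.95-fold. Rnf135 and Zc3hav1 thus had nearly the same fold in both genotypes.

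Mavs moved the other way. After LPS it was 29.7, 33.1 and 31.9 CPM in WT and 33.4, 36.9 and 37.1 CPM in ACAT1 KO lines, a fall of 1.45-fold and 1.39-fold (log2 -0.54 and -0.47, standard errors 0.0766 and 0.0763). Adjusted p over the 7 genes ranged from 1.45e-09 to 7.51e-05 in WT and from 7.635e-10 to 0.0001905 in ACAT1 KO lines (edgeR, over all genes tested). All 7 kept their direction and call in every alternative, each left-out library included. Upper-quartile scaling moved the median of all genes by -0.21 in WT and -0.15 in ACAT1 KO lines and left these directions in place.

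Per kilobase of exon, the order of the levels also changed. In unstimulated WT lines Zc3hav1 stood at 40.1 ± 1.55 CPM per kilobase (SD, n = 3), followed by Mavs at 13.7 ± 0.844, Dhx58 at 12.9 ± 0.319, Ddx58 at 8.05 ± 0.719, Rnf135 at 5.44 ± 0.653, Ifih1 at 4.75 ± 0.360 and Ddx60 at 1.44 ± 0.115. The ranges of Mavs and Dhx58 overlapped, as did those of Rnf135 and Ifih1. In unstimulated ACAT1 KO lines Zc3hav1 was at 33.9 ± 1.04, Mavs at 14.8 ± 1.18, Dhx58 at 8.01 ± 0.867, Rnf135 at 5.20 ± 0.384, Ddx58 at 4.50 ± 0.679, Ifih1 at 3.29 ± 0.416 and Ddx60 at 0.783 ± 0.0486 CPM per kilobase. Only Rnf135 and Ddx58 overlapped there, so Dhx58 no longer reached the range of Mavs.

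After LPS, WT lines held Zc3hav1 at 119 ± 3.05, Ifih1 at 81.3 ± 19.1, Dhx58 at 51.7 ± 4.79, Ddx58 at 29.4 ± 3.65, Rnf135 at 24.7 ± 4.01, Mavs at 9.43 ± 0.518 and Ddx60 at 8.11 ± 2.18 CPM per kilobase, with overlaps between Ddx58 and Rnf135 and between Mavs and Ddx60. In ACAT1 KO lines Ifih1 led at 134.5 ± 14.2, above Zc3hav1 at 100 ± 4.74, Dhx58 at 52.9 ± 7.90, Ddx58 at 28.2 ± 3.59, Rnf135 at 23.9 ± 1.27, Mavs at 10.7 ± 0.622 and Ddx60 at 9.10 ± 1.01, with an overlap of Ddx58 and Rnf135 only. On this scale the mean of the adaptor passed from the second place at rest to the sixth after LPS in both genotypes, and MDA5 from the sixth to the second or first. These places depend on the length used: with the longest transcript in place of all exons, 18 of the 28 ranks were kept, and Mavs was then the third in unstimulated WT lines and the seventh after LPS in both genotypes, and Ifih1 the fifth in unstimulated WT lines.

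**Figure D2:**
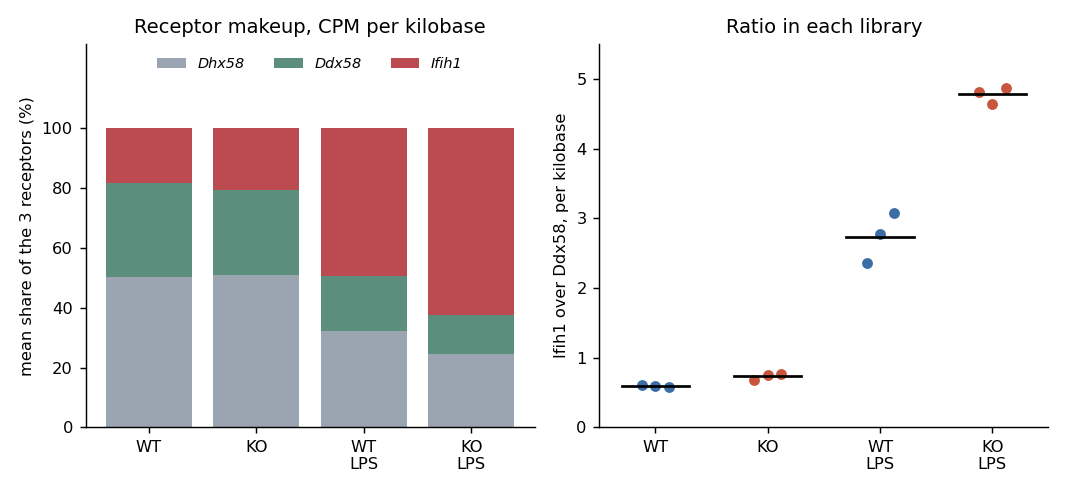
Left, mean share of each receptor transcript in the sum of Ddx58, Ifih1 and Dhx58 (CPM per kilobase of exon, percent, 3 libraries per group); right, ratio of Ifih1 to Ddx58 in each library with a bar at the mean. The Ifih1 share goes from 18.5% in WT and 20.8% in ACAT1 KO lines to 49.6% and 62.4% after LPS, and no group overlaps another in the ratio.

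The makeup of the receptor pool was compared within each library, where scaling between libraries plays no part. The ratio of Ifih1 to Ddx58 per kilobase was 0.609, 0.587 and 0.576 in unstimulated WT and 0.676, 0.759 and 0.768 in unstimulated ACAT1 KO lines. After LPS it was 2.36, 2.78 and 3.07 in WT and 4.81, 4.64 and 4.87 in ACAT1 KO lines. Knockout lines were thus above WT lines in both states, although an exact permutation test of 3 against 3 cannot go below p = 0.1 and none was run on this ratio, which was chosen with the levels known. The ratio of Dhx58 to Ddx58 overlapped in all groups, with means from 1.61 to 1.88. Relative to the adaptor, Ifih1 over Mavs was 0.347 ± 0.0168 in WT and 0.224 ± 0.0376 in ACAT1 KO lines unstimulated (SD, n = 3), and 8.57 ± 1.70 and 12.6 ± 1.68 after LPS. Knockout lines were lower at rest and higher after LPS, without overlap in either state.

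**Figure D3:**
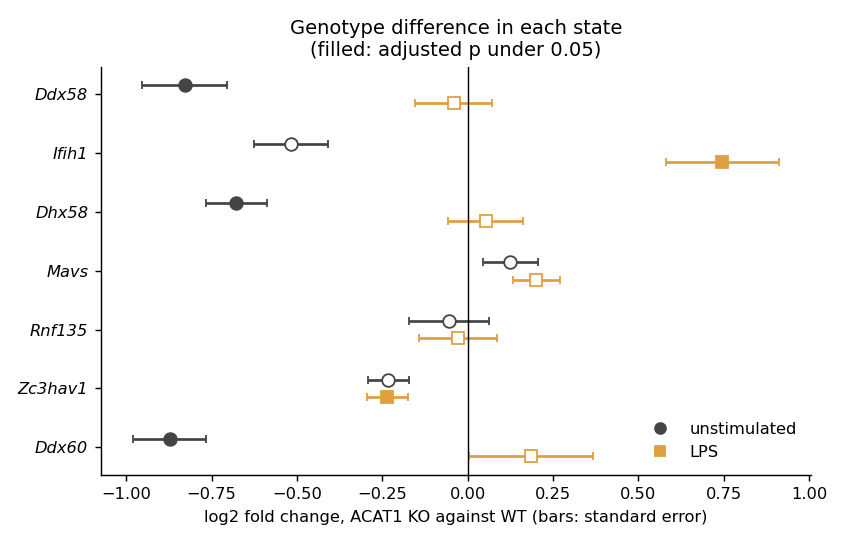
Log2 fold change of ACAT1 KO against WT for each gene, unstimulated (circles) and after LPS (squares), with bars of 1 standard error from edgeR and filled symbols for an adjusted p under 0.05. Ddx58, Dhx58 and Ddx60 sit between -0.87 and -0.68 unstimulated and between -0.041 and 0.19 after LPS, Ifih1 goes from -0.52 to 0.75, and Zc3hav1 stays at -0.23.

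The genotypes were then compared after LPS. Ifih1 was higher and Zc3hav1 lower in ACAT1 KO lines, 2 of the 7, where 15.1% of 16483 genes passed the adjusted test, 5.93% as higher and 9.12% as lower. By the unadjusted p, 3 of the 7 passed, against 31.3% of genes, and the same 3 (Ifih1, Mavs and Zc3hav1) had groups that did not overlap, as did 37.6% of genes. For Ifih1 the lowest knockout line (969.9 CPM) exceeded the highest WT line (781 CPM), at 0.75 on the log2 scale (standard error 0.166, adjusted p = 0.0240 by edgeR). Zc3hav1 stood at -0.23 (standard error 0.0597, adjusted p = 0.0352 by edgeR), the same size as at rest. Mavs was at 0.20 (standard error 0.0700, adjusted p = 0.0906), and its 37 tested neighbours within 1 Mb had a median of 0.38, with 17 of them called higher. Ifih1 lies on the same chromosome outside that stretch, and the 5 genes tested within 1 Mb of it had medians of -0.35 at rest and 0.15 after LPS.

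The remaining members overlapped between genotypes after LPS. The log2 fold change was -0.041 for Ddx58 (standard error 0.113), 0.053 for Dhx58 (standard error 0.110), 0.19 for Ddx60 (standard error 0.183) and -0.027 for Rnf135 (standard error 0.114), with adjusted p from 0.531 to 0.897. These standard errors do not show equal levels. The calls again depended on single libraries. Ifih1 passed without WT line 1, WT line 3 or ACAT1 KO line 3, and no member passed in edgeR without WT line 2, ACAT1 KO line 1 or ACAT1 KO line 2 (3, 3 and 2 passed unadjusted). The Ifih1 value then ranged from 0.56 to 0.89 (adjusted p = 0.0106 to 0.0825), and Zc3hav1, at -0.26 to -0.20, passed in none of the 6 (adjusted p = 0.0543 to 0.119).

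Whether LPS acted differently in the genotypes was tested by their interaction over all 12 libraries. For Ifih1, Ddx60, Ddx58 and Dhx58 the change per line was larger in all 3 ACAT1 KO lines than in any WT line. The share of all genes with such a separation was not computed. As log2 CPM of LPS minus unstimulated in the line of the same number, Ifih1 changed by 3.74, 4.11 and 4.37 in WT lines and by 5.38, 5.31 and 5.38 in ACAT1 KO lines. Ddx60 changed by 2.13, 2.53 and 2.71 in WT lines and by 3.60, 3.55 and 3.44 in ACAT1 KO lines. The least responsive knockout line of each gene thus exceeded the most responsive WT line. Ddx58 changed by 1.78, 1.86 and 1.96 in WT lines and by 2.54, 2.70 and 2.71 in ACAT1 KO lines. Dhx58 changed by 1.87, 1.96 and 2.17 in WT lines and by 2.64, 2.79 and 2.72 in ACAT1 KO lines, again without overlap.

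Without a term for the line, the interaction on the log2 scale was 1.25 for Ifih1 (standard error 0.224, adjusted p = 0.0572), 0.72 for Dhx58 (standard error 0.153, adjusted p = 0.0948), 1.05 for Ddx60 (standard error 0.234, adjusted p = 0.110) and 0.78 for Ddx58 (standard error 0.186, adjusted p = 0.130). None of the 7 passed the adjusted threshold in edgeR or in limma-voom, where 0.187% of genes passed in edgeR, while 4 passed in DESeq2. The share of all genes that DESeq2 called was not computed, so its 4 have no background to be read against. At an unadjusted p, 4 passed in edgeR, all positive, against 3.28% of genes. With the line as a block, which the correlation of same-numbered libraries allowed, all 4 passed, against 1.74% of genes in either direction and 0.835% with a positive value. The blocked values were 0.78 for Ddx58 (standard error 0.0794, adjusted p = 0.00546), 1.28 for Ifih1 (standard error 0.144, adjusted p = 0.00709), 0.72 for Dhx58 (standard error 0.0904, adjusted p = 0.0111) and 1.07 for Ddx60 (standard error 0.140, adjusted p = 0.0126). Without the block, leaving out WT line 3 after LPS brought Ifih1 and Ddx60 under the threshold (adjusted p = 0.0435 and 0.0496).

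Mavs, Rnf135 and Zc3hav1 had interactions smaller than their standard errors, at 0.065 (standard error 0.108), 0.017 (standard error 0.168) and -0.015 (standard error 0.0810), with adjusted p from 0.951 to 0.999 by edgeR, and the signs of those of Rnf135 and Zc3hav1 were not stable across alternatives. Zc3hav1 changed by 1.59, 1.53 and 1.60 in WT lines and by 1.53, 1.62 and 1.53 in ACAT1 KO lines, overlapping ranges. Mavs changed by -0.62, -0.56 and -0.43 in WT lines and by -0.44, -0.45 and -0.52 in ACAT1 KO lines. The interaction shares its libraries with both genotype comparisons, so it restates their difference and is not separate evidence.

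**Figure D4:**
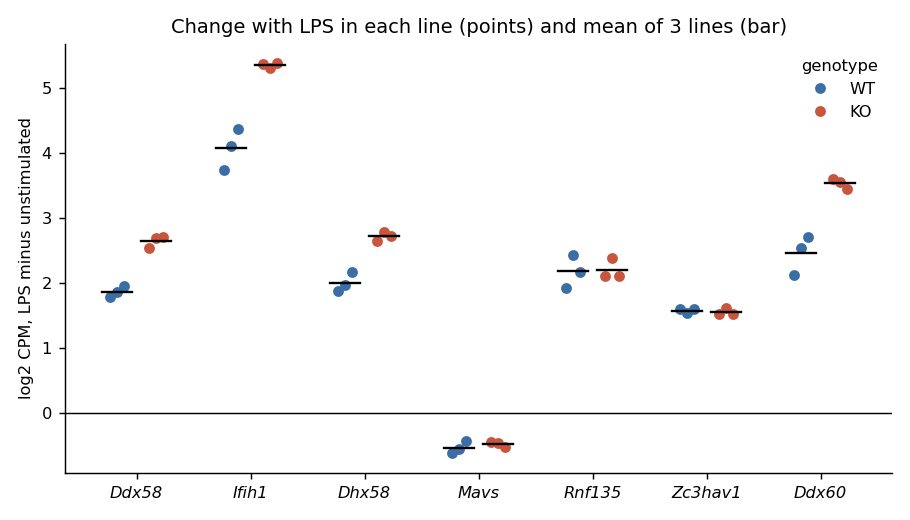
Change with LPS in log2 CPM for each gene and line, with 3 WT points (blue), 3 ACAT1 KO points (red) and a bar at each mean. Knockout points lie above all WT points for Ddx58, Ifih1, Dhx58 and Ddx60, and the genotypes overlap for Mavs, Rnf135 and Zc3hav1. The share of all genes separated in this way was not computed.

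Other genes of the pathway were read from 5 lists, of which 72 genes were tested in unstimulated cells and 74 after LPS. Unstimulated, 1 of the 72 was called higher and 1 lower, where 1.91% of all genes tested were called in either direction and 1.17% as lower. Nlrx1, a mitochondrial NOD-like protein reported to restrain MAVS, was 26.2 ± 2.46 CPM in WT and 37.0 ± 2.41 CPM in ACAT1 KO lines (SD, n = 3; log2 0.49, adjusted p = 0.0484). Tbk1, the kinase that phosphorylates IRF3, was 95.4 ± 4.15 and 74.9 ± 2.19 CPM (log2 -0.35, adjusted p = 0.0442). No gene passed in edgeR among 16 receptor regulators (3 lower unadjusted, 3 lower in DESeq2), 8 ZAP cofactors (0 unadjusted, 0 in DESeq2) or 9 outputs (1 higher and 4 lower unadjusted, 4 lower in DESeq2), and limma-voom called none in any of the 5 lists. The share of all genes that DESeq2 called was not computed. The median log2 fold change was 0.054 for receptor regulators, 0.097 for MAVS regulators, 0.097 for signalling genes, -0.0060 for ZAP cofactors and -0.31 for outputs, against -0.52 for the 7 members and 0.0035 for all genes.

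At an unadjusted p under 0.05 by edgeR, 12 of the 72 were lower at rest and 10 higher, Nlrx1 and Tbk1 included. Of all genes tested, 9.93% were lower. The share that were higher is not given here, so the counts of higher genes have no background to be read against. MAVS regulators had 4 higher and 0 lower, and signalling genes 5 higher and 5 lower. The higher ones included Itch (log2 0.28, adjusted p = 0.0772), Tbkbp1 (0.29, adjusted p = 0.0797) and Traf6 (0.33, adjusted p = 0.135). Some listed genes had lower values in ACAT1 KO lines at rest that did not pass the adjusted test. Trim25, a ubiquitin ligase for RIG-I and a partner of ZAP, was at -0.49 (adjusted p = 0.0543), Irf7, an interferon-induced transcription factor, at -1.31 (adjusted p = 0.0766), and Cxcl10, a chemokine, at -0.90 (adjusted p = 0.0741), all in edgeR. Isg15, a ubiquitin-like modifier, stood at -0.94 (adjusted p = 0.0847) and Ifit1, which binds viral RNA caps, at -0.94 (adjusted p = 0.0807).

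After LPS, 6 of the 74 genes were called higher and 9 lower in ACAT1 KO lines, where 5.93% and 9.12% of all genes tested were. Among receptor regulators 0 were higher and 3 lower, namely Usp15, a deubiquitinase (log2 -0.42, adjusted p = 0.00817), Ywhah, a 14-3-3 protein (-0.30, adjusted p = 0.0240), and Mex3c (-0.28, adjusted p = 0.0262). Among 16 MAVS regulators Nlrx1 (0.46, adjusted p = 0.0281) and the ubiquitin ligase Rnf5 (0.28, adjusted p = 0.0349) were higher and the ligase Smurf1 lower (-0.40, adjusted p = 0.0157). Of 23 signalling genes 1 was higher and 5 lower, the lower ones with the smallest p being Traf3 (-0.62, adjusted p = 0.00373), Tbk1 (-0.41, adjusted p = 0.00628), Casp8 (-0.52, adjusted p = 0.00952) and Traf5 (-0.66, adjusted p = 0.0130). The higher one was Traf6 (0.25, adjusted p = 0.0362) and the fifth lower one Ripk1 (-0.22, adjusted p = 0.0400), both named after their values were seen. Traf3 lies on chromosome 12, where 584 tested genes had a median of -0.28, with 12 called higher and 240 lower. The medians of these 3 lists were 0.012, 0.032 and 0.022 in the order given, near the -0.0039 of all genes, and no ZAP cofactor of 8 passed in edgeR (1 lower unadjusted, 0 in DESeq2 or limma-voom).

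The outputs of the pathway had 3 of 11 called higher and 0 lower after LPS, with a median of 0.30. Of all genes tested, 5.93% were called higher and 9.12% lower. Ifnb1, the gene of interferon-β, was 34.8 ± 13.7 CPM in WT and 84.2 ± 26.7 CPM in ACAT1 KO lines (SD, n = 3; log2 1.27, adjusted p = 0.0312 by edgeR). Il6 was 74.9 ± 21.7 and 198 ± 56.5 CPM (log2 1.40, adjusted p = 0.0126), and Tnf 1697 ± 203 and 2557 ± 511 CPM (log2 0.59, adjusted p = 0.0333). Ifnb1 was listed in the LPS table only, so its resting level is not analysed here. The interaction passed for none of the 72 in limma-voom or in edgeR, where 0.187% of all genes passed, and for 6 in DESeq2, whose share of all genes was not computed. Unadjusted in edgeR, 8 were positive and 8 negative, where 3.28% of all genes were positive. The share of all genes that were negative is not given here. With the line as a block 7 passed in edgeR, against 1.74% of all genes. Of the 7, Cxcl10 (1.26), Isg15 (1.25), Irf7 (1.40) and Ifit1 (1.06) had the smallest adjusted p, from 0.00415 to 0.0220. The other 3 were Trim25 (0.52), Ifit3 (0.72) and Smurf1 (-0.47).

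**Figure D5:**
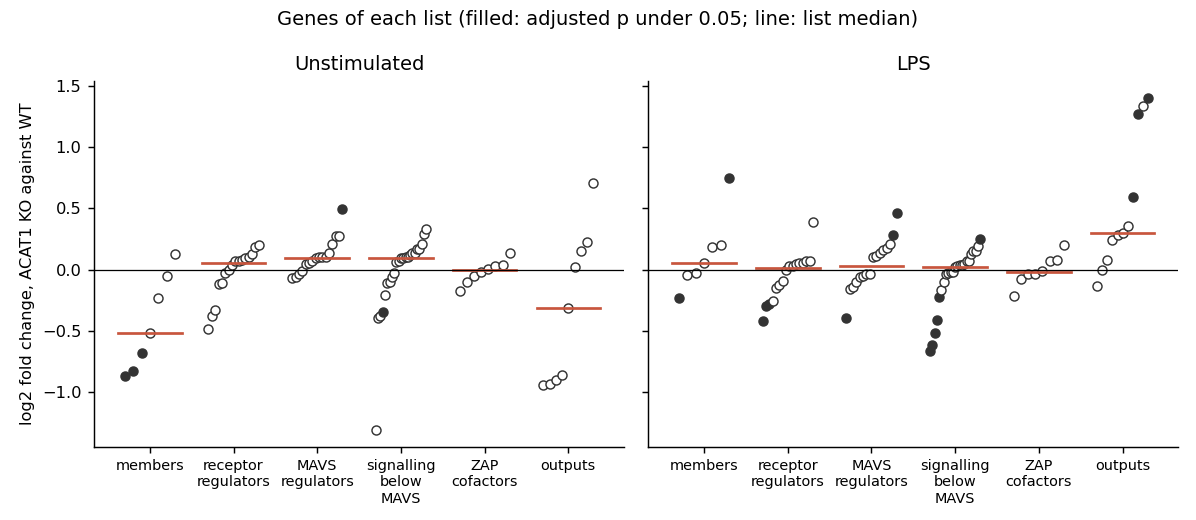
Log2 fold change of ACAT1 KO against WT for each gene of the 7 members and of 5 pathway lists, unstimulated (left) and after LPS (right), with a line at each list's median and filled points for an adjusted p under 0.05 in edgeR. Unstimulated, the medians of the members (-0.52) and outputs (-0.31) lie apart from the other lists, and after LPS the members' median is 0.053 and that of the outputs 0.30.

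With LPS itself, 46 of these 72 genes were called higher and 13 lower in WT (29.3% and 28.0% of all genes tested), and 45 higher and 18 lower in ACAT1 KO lines (29.5% and 31.2% of all genes). All 9 outputs tested rose in both genotypes, while receptor regulators had 6 higher and 3 lower in WT. Trim25 rose 5.76-fold in WT and 8.26-fold in ACAT1 KO lines. Nlrx1 fell by 1.91-fold and 1.96-fold in the same comparisons.

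The genes whose profile was most like that of a member were found by Pearson's r of log2 CPM over the 12 libraries, among 11954 genes with a mean of at least 1 CPM. Ddx58 was nearest to Ifi204 (r = 0.999), Usp18 and Phf11d, and Ifih1 to Rnf31 (r = 0.999), Ppm1k and Plscr1. Dhx58 was nearest to Slfn8 (r = 0.996), Mx2, an antiviral GTPase, and Rnf213, and Ddx60 to Phf11d (r = 0.996), Trim30a and Parp12. Rnf135 was nearest to Adamts4 (r = 0.997), Zc3hav1 to Zfp568 (r = 0.998) and Mavs to D2hgdh (r = 0.987). All libraries share the contrast of LPS with rest, which dominates such values, so r describes these 12 libraries only.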

How the data were processed

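RNA-seq of 12 libraries was used, 3 per genotype and state, with groups and replicate numbers taken from the labels. The paper gives 3 lines per genotype, and each replicate number was taken here as a line number. The authors used Trimmomatic 0.33 for trimming, HISAT2 for alignment (GRCm38) and StringTie for quantification, and deposited unnormalized whole-number counts per gene, 1 table per state. The step that gave whole counts and its use of strand are not given in the sources used here. Both tables also hold the authors' log2 values, fold changes and p-values. Of these the 12 log2 columns per library, and every comparison column, were not used. Removal of 59 and 57 repeated rows left 17544 and 17874 genes.

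Counts were tested with edgeR 4.0.16 in R 4.3.3 (filterByExpr, TMM, quasi-likelihood test, Benjamini-Hochberg over all genes tested), each state alone for genotype, and over the 16699 genes of both tables for LPS and its interaction with genotype. Levels are CPM scaled by TMM over all 12 libraries. Same-group libraries differed by more than sampling noise (chi-square per degree of freedom 34.1 to 287), so none is a copy, and with 657 or more counts per member the spread between lines limits precision. The line block joins unstimulated and LPS libraries of the same genotype and number. The labels do not state that pairing. Deviations from group means correlated at 0.139 to 0.454 for same numbers over 11961 genes, and at -0.344 to 0.0976 for other numbers, so the numbers were taken to pair the libraries.

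Coordinates and exon lengths are from GENCODE M21, promoters from RefSeq. Named genes are the 7 members, up to 4 genes of each list with the smallest p per comparison, the nearest profiles and Acat1. The members and lists were chosen with earlier results of these data known, so their counts are descriptive. The lists hold 77 genes besides markers, of which Rnf125, Zcchc3 and Trim31 were not tested in either state. Alternatives were DESeq2 1.42.0, limma-voom 3.58.1, RLE and upper-quartile normalization, no filter, at least 10 counts in every library, a single fit, replicate blocks, a term for the 3 libraries with more opposite-strand counts, transcript length and each library left out. The block with that term was added after the data were seen. The fits were tested on simulated counts with known changes.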

Additional observations from a re-analysis of the deposited data

Results flagged for a closer look

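The response to LPS differed between ACAT1 KO and WT lines for 4 of the 7 genes when the line was a block, by the interaction of genotype and LPS in edgeR's quasi-likelihood test. The extra log2 gain in ACAT1 KO lines was 1.28 for Ifih1, 1.07 for Ddx60, 0.783 for Ddx58 and 0.717 for Dhx58, each with all 3 knockout lines above all 3 WT lines. The share of all genes with such a separation was not computed. The 4 differences rest on the same 12 libraries and are not independent of each other. After LPS, Ddx60, Ddx58 and Dhx58 overlapped between genotypes (log2 0.19, -0.041 and 0.053), so their larger gain went with a lower start. Of the 4, only Ifih1 was called higher after LPS (0.75), a call that depended on single libraries. All 4 interactions passed with the block and, in DESeq2, without it, though the share of all genes called by DESeq2 was not computed. Without the block limma-voom called none of them. In edgeR without the block none passed with all libraries at the filter and terms first chosen, while Ifih1 passed with at least 10 counts in every library (adjusted p = 0.0447), with the strand term (adjusted p = 0.0495) and without WT line 3 after LPS (adjusted p = 0.0435), where Ddx60 passed too (adjusted p = 0.0496). The summed macrophage list was 9736 to 10220 CPM in WT and 10680 to 11860 CPM in ACAT1 KO libraries unstimulated, and 7003 to 7405 against 7395 to 8330 CPM after LPS, and its part in these results was not tested. Lyz2 made up most of that sum, at 6785 ± 406 CPM in WT and 7682 ± 478 CPM in ACAT1 KO libraries unstimulated (SD, n = 3).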

How the results depend on the processing

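Of 644 recomputed values for single genes, 578 kept direction and call, 26 lost and 20 gained a call, and 20 changed sign, all of them uncalled and near 0. Beyond the fits first chosen, the share of all genes called was computed only for the interaction with the line as a block. The number of members called unstimulated (3) became 5 in DESeq2 and 0 to 3 with a library left out. After LPS (2) it became 1 with upper-quartile normalization and 0 to 1 with a library left out. For the interaction (0) it became 4 in DESeq2, 1 with at least 10 counts in every library, 1 with the strand term and 0 to 2 with a library left out. The replicate block by line gave 4, also with the strand term added, and changed no call of the LPS response. WT and ACAT1 KO lines of the same number share only that number (correlations of deviations -0.412 to 0.745 unstimulated and -0.108 to 0.173 after LPS), and a replicate block over them gave 2 members unstimulated and 1 after LPS.

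Other pathway genes called unstimulated (2) became 15 in DESeq2, 0 in limma-voom, 1 with the replicate block, 5 with the strand term, 11 in the single fit and 0 to 3 with a library left out. After LPS (15) they became 5 to 13 with a library left out. For the interaction (0) they became 6 in DESeq2 and 7 with the line as a replicate block, with or without the strand term. The shares of all genes that DESeq2 called were not computed, so its counts have no background to be read against. In simulated counts DESeq2 called more unchanged genes than edgeR. Those counts were drawn with the spread that edgeR estimated and with no effect of line, so they do not show which DESeq2 calls in these data are false. Of 28 ranks 18 were kept with the longest transcript.

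Signs changed as follows on the log2 scale. Over the fits with a library left out, Rnf135 unstimulated ranged from -0.13 to 0.046 (positive without WT line 3). After LPS, Ddx58 ranged from -0.14 to 0.057 (positive without WT line 2 at 0.024, WT line 3 at 0.011 and ACAT1 KO line 3), Dhx58 from -0.075 (without ACAT1 KO line 2) to 0.14, Ddx60 from -0.011 (without WT line 1) to 0.38 and Rnf135 from -0.15 to 0.076 (positive without WT line 2, WT line 3 and ACAT1 KO line 1). The interaction of Rnf135 ranged from -0.11 to 0.11, negative in 4 of these fits, and that of Zc3hav1 from -0.046 to 0.022, positive in 5. Upper-quartile normalization gave 0.0023 for Rnf135 after LPS and 0.045 for the interaction of Zc3hav1. The causes were not tested. With 3 lines per group, a library more or less decides the resting calls, and genes absent from 1 table could not be followed across states.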

Other observations

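Adgre1, the gene of the macrophage surface protein F4/80 and 1 of the 8 macrophage markers, was, like Ddx58 and Dhx58, lower in ACAT1 KO lines at rest and overlapping between genotypes after LPS. It was named after its values were seen. It was 82.0 ± 9.71 CPM in WT and 47.6 ± 4.85 CPM in ACAT1 KO lines unstimulated (SD, n = 3), without overlap. After LPS it was 140 ± 12.1 and 146 ± 2.58 CPM, with overlapping libraries. Csf1r, another marker of that list, did not show this, at 1498 ± 44.6 and 1707 ± 175 CPM unstimulated and 1254 ± 71.7 and 1441 ± 145 CPM after LPS. The CPM of both markers are scaled within each state, so they compare the genotypes and do not give the change with LPS.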
